A study of Mus musculus with 2 samples.

Results

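The collagen genes of mouse, apart from Col17a1, were followed in keratinocytes sorted from dorsal skin. Members were taken by name, as every gene whose symbol is Col, a number, the letter a and a number. This gave 43 of the 50559 genes in the count tables, with the transmembrane collagen gene Col17a1 of the hemidesmosome set aside. The series holds 1 group of 2 replicate libraries of total RNA. Both came from mice of the genotype Polr2b.fl.fl.GFP; K14Cre at postnatal day 21, when the hair follicles rest in telogen. The genotype names a floxed Polr2b, the gene of an RNA polymerase II subunit, with GFP, together with a Cre recombinase that the keratin 14 promoter drives in basal epidermis and the epithelium of the follicle. Every library carried all of these, so there is no group without them, and live GFP-positive cells were the fraction sorted. The labels do not say how many animals gave each library. The series was made to set steady-state RNA beside nascent RNA, and the nascent RNA was not analysed here. The comparisons are therefore of the collagen genes with each other, with their pathway, and of replicate 1 with replicate 2, which no condition separates.

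Collagens are the main structural proteins of skin. Each is built from 3 chains wound into a triple helix, in which glycine recurs at every 3rd residue because no larger residue has room at the centre of the helix. In skin, fibroblasts of the dermis make the fibrillar types that give tensile strength, and basal keratinocytes add chains to the basement membrane and make the type VII collagen of the anchoring fibrils that hold it to the dermis.

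Replicate 1 held 36692204 counts and replicate 2 held 33489967 counts. The collagen genes took 1.56% of all counts in replicate 1 (95% exact binomial interval 1.55 to 1.56%) and 0.808% in replicate 2 (0.805 to 0.811%). Intervals of this kind cover counting error only. Scaled by gene length as TPM, they took 0.659% of TPM in replicate 1 and 0.338% in replicate 2, on average 0.499% ± 0.227 (SD, n = 2). Markers of the labelled cell type were abundant, with Krt14 at 2102 CPM (counts scaled to the library total) in replicate 1 and 3176 CPM in replicate 2, and all 10 listed markers of basal keratinocytes above 1 CPM in each. Markers of fibroblasts were present as well, with all 13 above 1 CPM in each library, and their summed level was 2287 CPM in replicate 1 and 1209 CPM in replicate 2. All 8 listed myeloid markers were also above 1 CPM in each, with summed levels of 6769 CPM in replicate 1 and 7420 CPM in replicate 2. The libraries were not alike in sex-linked RNA, since replicate 1 held 112587 counts of Xist against 11 in replicate 2. Whether the animals were female or male is not labelled.

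Of the 43 collagen genes, 32 reached 1 CPM in both libraries and 24 reached 10 CPM in both. Over all 50559 genes, 31.3% reached 1 CPM and 18.8% reached 10 CPM in both. A single gene, Col22a1, had no count in either library, so its level could be as high as the limit of 3 counts, 0.0818 CPM in replicate 1 and 0.0896 CPM in replicate 2. Col9a1 had 1 count in replicate 1 and 0 in replicate 2. Most of the family was thus measured, and its RNA lay mainly in few genes. Col1a1, Col3a1 and Col1a2 together held 81.9% of the summed collagen TPM in replicate 1 and 78.5% in replicate 2.

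**Figure D1:**
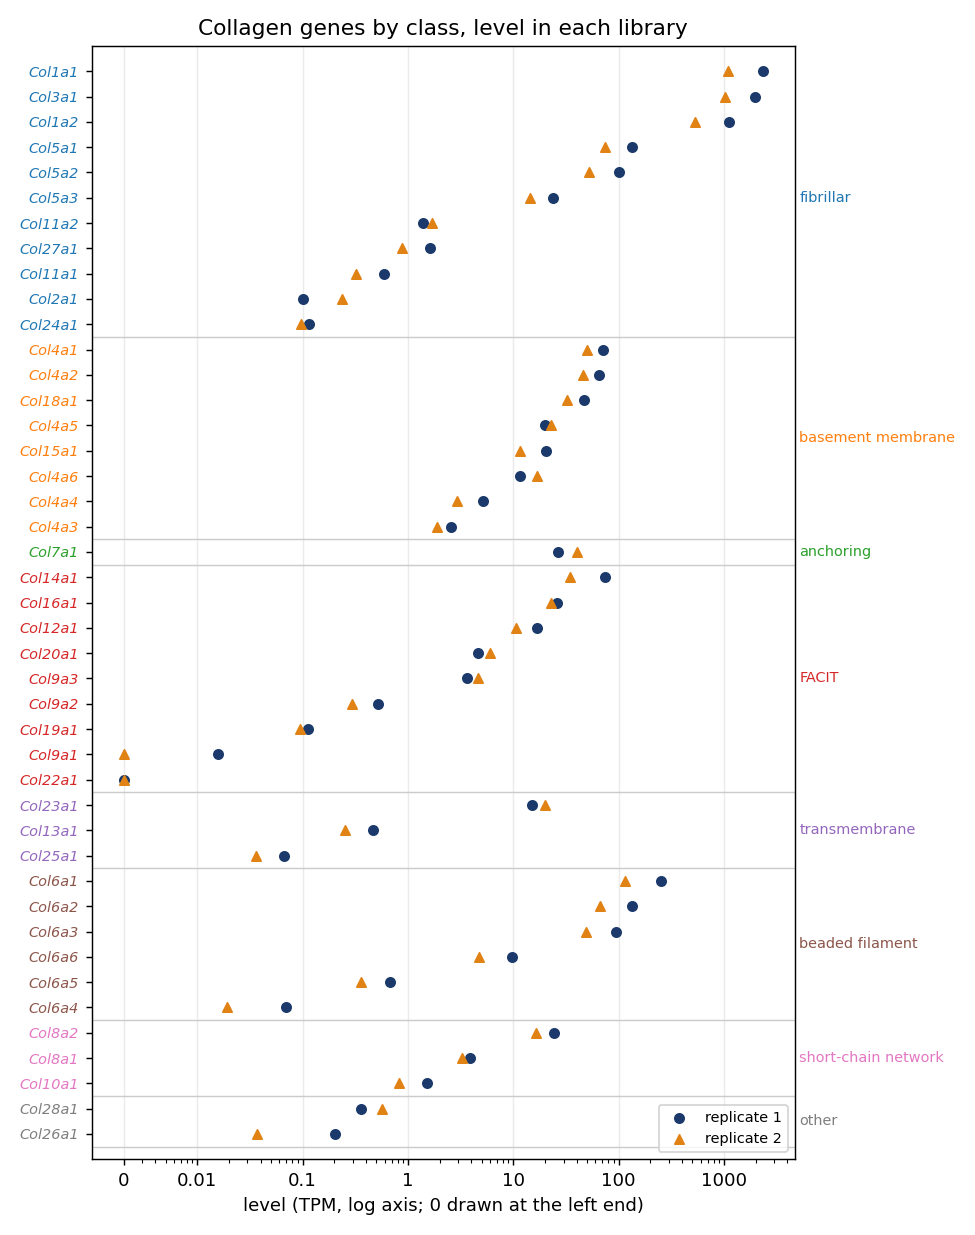
Level of each of the 43 collagen genes in TPM (log axis, 0 drawn at the left end) in replicate 1 (circles) and replicate 2 (triangles), grouped by class. Levels run from Col22a1 at 0 to Col1a1 at 2335 TPM in replicate 1 and 1097 TPM in replicate 2.

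Fibrillar collagens, the chains of the banded fibrils of dermis, cartilage and cornea, held 85.8% of collagen TPM in replicate 1 and 82.8% in replicate 2. Col1a1, which encodes the major chain of type I collagen, had 2335 TPM in replicate 1 and 1097 TPM in replicate 2. It was the gene with the 55th highest mean TPM of all, and the 10th highest by mean CPM. Col3a1, whose type III collagen forms fibrils together with type I in extensible tissue, had 1957 and 1030 TPM. Col1a2, the partner chain of Col1a1, had 1103 and 530.7 TPM. All 3 were higher in replicate 1, and the lower library of each still exceeded 500 TPM.

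These genes share a coding pattern. The choice by name implied the glycine repeat, which collagens carry, but did not use exon lengths. In the GENCODE M21 annotation, 305 of the 649 coding exons of the 11 fibrillar genes (47.0%) are exactly 54 bases long, against 0.448% of the coding exons of 21506 other protein-coding genes. A length of 54 bases fits whole repeats of a glycine codon, GGN, followed by a pair of other codons. The first 54-base exon made wholly of this repeat in each of the 3 most abundant chains is printed 5′ to 3′ with the glycine codons in capitals, because it shows the repeat that each chain carries. They lie at chr11:94939904-94939957, chr6:4515481-4515534 and chr1:45325360-45325413 of build GRCm38, all on the plus strand, within the coding sequence.
Col1a1: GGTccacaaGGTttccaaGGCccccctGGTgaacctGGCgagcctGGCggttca
Col1a2: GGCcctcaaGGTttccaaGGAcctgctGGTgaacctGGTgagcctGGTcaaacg
Col3a1: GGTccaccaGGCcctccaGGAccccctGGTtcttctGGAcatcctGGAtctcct
These exons were picked because GGN opens them and recurs every 9 bases. Over the whole coding sequence, the longest unbroken run of this repeat was 338 repeats in Col1a1, 339 in Col1a2 and 344 in Col3a1. Each of the 43 collagen genes had a run of 20 or more repeats, while 21 of the other 21506 genes (0.0976%) had one.

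The minor fibrillar chains stood an order lower. Col5a1 and Col5a2 encode chains of type V collagen, which sits inside type I fibrils and limits their width. Col5a1 had 135 TPM in replicate 1 and 73.8 TPM in replicate 2, and Col5a2 had 100.04 and 52.8 TPM. Col5a3, a further type V chain, had 23.6 and 14.4 TPM. All of these were higher in replicate 1. The remaining 5 fibrillar genes had mean levels between 0.106 TPM (Col24a1) and 1.53 TPM (Col11a2). They include Col2a1 and Col11a1, chains of cartilage fibrils. Col2a1 had 9 counts in replicate 1 and 19 counts in replicate 2. Of 5 cartilage markers none reached 1 CPM in both libraries.

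Beaded filament chains form type VI collagen, a network around fibroblasts and other cells that bridges them to the fibrils. They held 7.48% of collagen TPM in replicate 1 and 7.02% in replicate 2. Col6a1 had 254 TPM in replicate 1 and 116 TPM in replicate 2. Col6a2 had 134 and 67.2 TPM, and Col6a3, the long chain of the assembly, had 94.5 and 49.1 TPM. Col6a6, which can take the place of Col6a3, had 9.76 and 4.76 TPM. The other 2 chains, Col6a5 and Col6a4, had means of 0.517 and 0.0440 TPM. Every one of the 6 was higher in replicate 1 in value, and 5 passed the test described below.

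Basement membrane collagens held 3.67% of collagen TPM in replicate 1 and 5.46% in replicate 2. Col4a1 and Col4a2 encode the chains of the type IV network found in nearly all basement membranes. Col4a1 had 71.4 TPM in replicate 1 and 50.6 TPM in replicate 2, and Col4a2 had 64.4 and 46.0 TPM. The chains Col4a5 and Col4a6, which in skin lie beneath the epidermis, had 19.95 TPM in replicate 1 against 22.8 TPM in replicate 2, and 11.6 against 16.6 TPM. Thus the first pair was higher in replicate 1 and the second pair lower. Col4a4 and Col4a3, best known from the kidney glomerulus, were low, at 5.21 and 2.94 TPM and at 2.54 and 1.88 TPM. The multiplexins are collagens with heparan or chondroitin sulfate chains at basement membranes. Col18a1, the source of endostatin, had 46.7 TPM in replicate 1 and 32.4 TPM in replicate 2. Its relative Col15a1 had 20.4 and 11.6 TPM.

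The anchoring fibril gene Col7a1 had 26.6 TPM in replicate 1 and 39.8 TPM in replicate 2, or 99.4 and 148 CPM. It was lower in replicate 1, against the direction of the fibrillar genes. Anchoring fibrils join the basement membrane to dermal fibrils, and loss of the gene causes dystrophic epidermolysis bullosa in humans. With a coding sequence in 118 exons, Col7a1 had the most coding exons of the 43 genes. Of these, 26 were 36 bases long and 6 were 54 bases long, so its repeat is cut into shorter exons than that of the fibrillar genes.

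FACIT genes encode fibril-associated collagens, whose short helices are interrupted and sit on the surface of larger fibrils. The 9 in the tables held 1.91% of collagen TPM in replicate 1 and 2.33% in replicate 2. Col14a1, which binds type I fibrils, had 74.0 TPM in replicate 1 and 34.5 TPM in replicate 2. Col16a1, made by fibroblasts and keratinocytes, had 26.03 and 22.8 TPM, and the fibril-surface chain Col12a1 had 16.8 and 10.7 TPM. Col20a1 had 4.58 and 5.96 TPM. The first 3 were higher in replicate 1 and Col20a1 was lower. The type IX chains of cartilage ranged from Col9a1 at a mean of 0.00796 TPM to Col9a3 at 4.14 TPM, and Col19a1 had a mean of 0.103 TPM.

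Transmembrane collagens span the plasma membrane and have a collagenous outer part that can be shed. Col23a1 was the abundant one, at 15.1 TPM in replicate 1 and 20.2 TPM in replicate 2, and it was lower in replicate 1. Col13a1 had 0.461 and 0.253 TPM, and Col25a1 had 0.0663 and 0.0364 TPM. Col17a1, left out of the family here, had 1030 TPM in replicate 1 and 1323 TPM in replicate 2. It encodes the transmembrane collagen that ties keratins of basal cells to the basement membrane, and in replicate 1 it lay just below Col1a2, while in replicate 2 it exceeded Col1a1. Its fold of replicate 1 over replicate 2 was 0.780 (95% exact interval 0.773 to 0.787), in the same direction as Col23a1 and Col7a1.

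The short-chain network genes encode types VIII and X, small collagens that form lattices. Col8a2 had 24.3 TPM in replicate 1 and 16.3 TPM in replicate 2, and Col8a1 had 3.91 and 3.25 TPM. Col10a1, a marker of hypertrophic cartilage, had 1.51 and 0.829 TPM, and its exons overlap those of Nt5dc1 on the other strand. The remaining pair belongs to none of these classes. Col28a1 had 0.357 TPM in replicate 1 and 0.562 TPM in replicate 2, and Col26a1 had 0.202 and 0.0369 TPM, so both were near the bottom of the family.

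**Figure D2:**
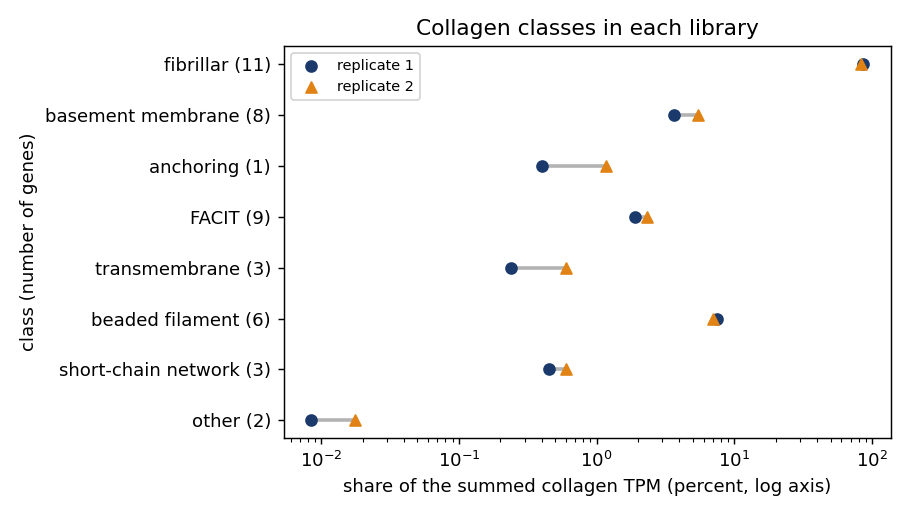
Share of the summed collagen TPM held by each class (percent, log axis, number of genes in parentheses) in replicate 1 (circles) and replicate 2 (triangles), joined by a line. The fibrillar class held 85.8% in replicate 1 and 82.8% in replicate 2, and the anchoring class, Col7a1, held 0.404% and 1.18%.

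The fibrillar and beaded filament classes were the only 2 of 8 whose share was larger in replicate 1, at 85.8% and 82.8% and at 7.48% and 7.02%. The anchoring and transmembrane shares were the most unlike of those above 0.1%, and smaller in replicate 1, at 0.404% against 1.18% and at 0.238% against 0.604%. With 2 libraries these differences have no test.

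Ratios between chains of 1 collagen type were compared with their counting error. Per length, Col1a1 had 2.12 times the level of Col1a2 in replicate 1 (95% exact interval 2.10 to 2.13) and 2.07 times in replicate 2 (2.04 to 2.09). The type I molecule has a pair of Col1a1 chains and a single Col1a2 chain. The ratio of Col4a1 to Col4a2 was 1.11 in replicate 1 (1.07 to 1.15) and 1.10 in replicate 2 (1.05 to 1.14). For Col5a1 over Col5a2 it was 1.35 (1.32 to 1.39) and 1.40 (1.35 to 1.45). The intervals of these last 2 pairs overlapped between the libraries, and those of the type I pair did not.

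Other chain ratios moved more. Col9a2 over Col9a3 was 0.142 in replicate 1 (0.0853 to 0.223) and 0.0641 in replicate 2 (0.0315 to 0.117), on few counts of Col9a2. Col8a1 over Col8a2 was 0.161 (0.142 to 0.183) and 0.1995 (0.172 to 0.231). Both pairs had overlapping intervals. Col6a1 over Col6a3 was 2.69 in replicate 1 (2.63 to 2.75) and 2.36 in replicate 2 (2.28 to 2.45). Col6a1 over Col6a2 was 1.90 (1.85 to 1.94) in replicate 1 and 1.73 (1.67 to 1.79) in replicate 2. Col4a5 over Col4a6 was 1.72 (1.60 to 1.85) and 1.37 (1.28 to 1.47). Col4a3 over Col4a4 was 0.487 (0.428 to 0.554) and 0.641 (0.543 to 0.755). Col3a1 over Col1a1, chains of different fibrillar types, was 0.838 (0.833 to 0.844) in replicate 1 and 0.939 (0.930 to 0.948) in replicate 2. The intervals of the Col6a1 over Col6a3, Col6a1 over Col6a2, Col4a5 over Col4a6 and Col3a1 over Col1a1 pairs did not overlap between the libraries. Those of Col4a3 over Col4a4 overlapped only at their edges. Within type VI, Col6a2 over Col6a3 had overlapping intervals, at 1.42 (1.38 to 1.45) in replicate 1 and 1.37 (1.32 to 1.42) in replicate 2.

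The difference between the libraries was tested for every gene with 10 or more counts in total, with an exact two-sided binomial test on the library totals and Benjamini-Hochberg adjustment over all 23690 such genes. It compares these libraries and no condition. Of the 43 collagen genes 41 were tested. By this test 26 were higher in replicate 1, beside 27.2% of all genes tested, and 5 were lower, beside 16.9%. These are 63.4% and 12.2% of the tested collagen genes, so the share that was lower is near that of all genes. The median log2 ratio, replicate 1 over replicate 2 on CPM + 0.5, was 0.55 for the collagen genes and 0.07 for all genes tested.

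Because the test calls abundant genes more readily, the count was also taken above a floor of 10 CPM. Abundance was not matched above that floor, and Col1a1 had a mean of 4104 CPM. Of the 24 collagen genes that reached 10 CPM in replicate 1 and in replicate 2, 19 were higher in replicate 1, beside 34.5% of the 9526 genes at that level, and 5 were lower, beside 29.4%. By size, 14 of the 24 were more than 1.5-fold higher in replicate 1, beside 5.13% of the 9526. The 5 lower genes were Col7a1, Col4a6, Col23a1, Col20a1 and Col4a5, at log2 ratios of -0.58, -0.51, -0.41, -0.36 and -0.19. They include the anchoring fibril gene and the type IV pair of the epidermal basement membrane.

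Folds of the abundant chains were precise against counting error. The fold of replicate 1 over replicate 2 was 2.13 for Col1a1 (95% exact interval 2.12 to 2.15), 2.08 for Col1a2 (2.06 to 2.11) and 1.90 for Col3a1 (1.89 to 1.92). For the type VI chains Col6a1, Col6a2 and Col6a3 it was 2.19, 2.00 and 1.93, and for Col14a1 it was 2.14. The type IV chains Col4a1 and Col4a2 had folds of 1.42 and 1.40, and Col18a1 had 1.45. Col16a1 was the smallest of the calls toward replicate 1 among the 24, at 1.14 (1.08 to 1.22). Of the calls in low genes, Col13a1 rested on 66 counts in both libraries together and was lost with TMM factors, and Col26a1 rested on 14.

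The binomial test holds no spread between libraries, and a test that does gave no call. edgeR's exact test, with 1 dispersion for all 23690 genes that corresponds to a coefficient of variation of 22.7%, called 0 of the 41 collagen genes after Benjamini-Hochberg adjustment. It called 45 genes of the whole table higher (0.19%) and 21 lower (0.0886%) in replicate 1. At an unadjusted p under 0.05 it had 6 collagen genes, namely Col6a1, Col14a1, Col1a1, Col1a2, Col6a6 and Col26a1, all toward replicate 1, beside 5.23% of all genes in that direction and 1.96% in the other. That dispersion was estimated from these same libraries. Adjusted p-values by edgeR were 0.524 for Col6a1 and 0.572 for Col1a1.

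**Figure D3:**
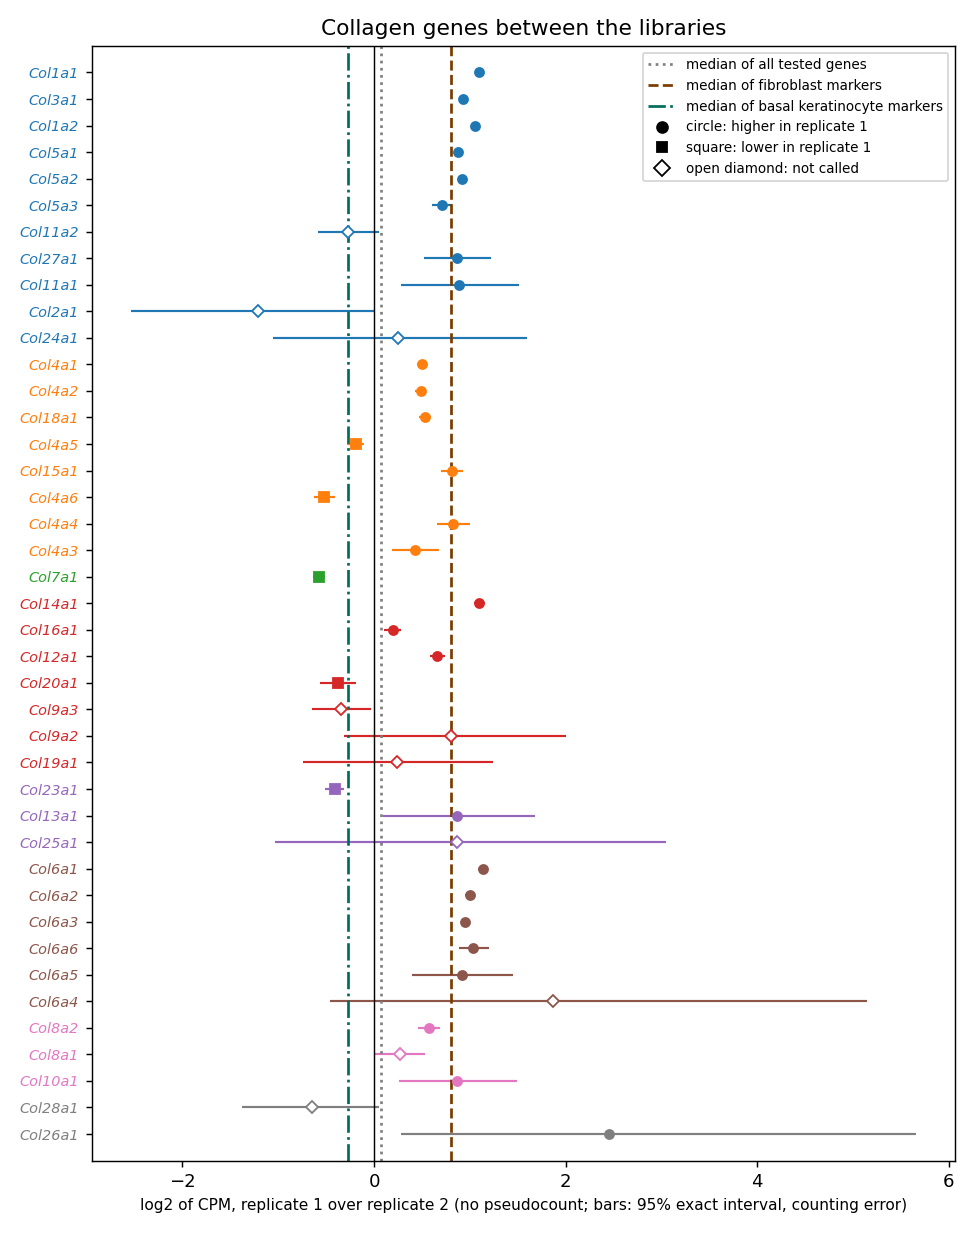
Log2 of CPM in replicate 1 over replicate 2 for the 41 tested collagen genes, without a pseudocount, with 95% exact intervals for counting error, coloured by class. Col7a1, Col4a6, Col23a1, Col20a1 and Col4a5 (squares) lie left of 0. The abundant genes Col1a1, Col1a2, Col3a1, Col6a1, Col6a2 and Col6a3 lie right of the dashed line, the fibroblast marker median.

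Genes that make and shape collagen were examined as lists. Of 21 genes for folding and modification in the endoplasmic reticulum, 17 were higher in replicate 1 by the binomial test and 2 lower, with a median log2 ratio of 0.37. Counts of this and the following lists stand beside 27.2% higher and 16.9% lower among all genes tested. At 10 CPM in both libraries, where 34.5% of genes were higher and 29.4% lower, the folding list had 9 of 13 higher and 2 lower. P4hb, a subunit of prolyl 4-hydroxylase that also serves as a general disulfide isomerase, had 366 TPM in replicate 1 and 342 TPM in replicate 2. Ppib, a proline isomerase, had 281 and 221 TPM. Serpinh1, the collagen-specific chaperone HSP47, had 269.7 and 141.0 TPM. Serpinh1 had a log2 ratio of 0.94 beside 0.93 for Col3a1, while P4hb was at 0.10. Beyond a log2 ratio of 1 was Colgalt2, a collagen galactosyltransferase gene, at 5.93 and 2.54 TPM and 1.14.

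Of 13 genes of procollagen processing and cross-linking, 11 were higher in replicate 1 and 1 was lower, with a median of 0.76, and at 10 CPM 7 of 8 were higher and 1 lower. Pcolce, which speeds the removal of the carboxy-terminal propeptide, had 152 TPM in replicate 1 and 79.0 TPM in replicate 2. Lox, the lysyl oxidase that starts cross-links, had 92.5 and 51.7 TPM, and the amino-propeptidase Adamts2 had 45.5 and 29.4 TPM. The relative of Lox, Loxl2, had a log2 ratio of 1.30. Adamts3 was at 1.00, with 0.935 and 0.393 TPM. Adamts14, a further amino-propeptidase, was the lower gene, at 12.02 and 22.02 TPM and -0.86.

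Fibril-associated proteoglycans and glycoproteins had 11 of 15 genes higher and 3 lower, with a median of 0.72, and at 10 CPM 10 of 13 higher and 3 lower. Sparc, a collagen-binding glycoprotein, had 1191 TPM in replicate 1 and 613 TPM in replicate 2. Decorin (Dcn) had 605 and 347 TPM. Thrombospondin 1 (Thbs1) had 771 and 1073 TPM and went the other way. Past a log2 ratio of 1 were the small leucine-rich proteins Aspn at 1.34 and Ogn at 1.04. Basement membrane partners had 12 of 18 higher and 5 lower, with a median of 0.27. At 10 CPM 11 of 16 were higher, and 4 were lower, a share near that of all genes. Lamb3, a laminin chain of the epidermal basement membrane, had 143 TPM in replicate 1 and 152 TPM in replicate 2, and the linker Nid1 had 91.5 and 59.1 TPM. Largest were Fras1 at 1.38 and Pxdn, the peroxidase that cross-links type IV collagen, at 1.14.

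Collagen receptors and uptake genes were higher in replicate 1 in 9 of 12 cases, and 0 were lower. Their median was 0.17, and at 10 CPM 5 of 7 were higher, 1 of them by more than 1.5-fold. Itgb1, Mrc1 and Ddr1 were among these calls at folds of only 1.05, 1.07 and 1.07. By edgeR, with TMM factors, their log2 ratios were -0.006, 0.016 and 0.021, so these small calls depend on the scaling. Binomial calls in the pathway lists were counted on library totals only. Itgb1, the shared beta chain of the collagen-binding integrins, had 226 TPM in replicate 1 and 216 TPM in replicate 2. The mannose receptor Mrc1, also a macrophage marker, had 992 and 932 TPM, and Adgrg1, a receptor for type III collagen, had 41.3 and 41.1 TPM. Of the receptors past a log2 ratio of 1, Itga1 was at 1.24 and Lair1 at 1.37. The receptor tyrosine kinase Ddr1, typical of epithelia, had 40.3 and 37.7 TPM, and its mesenchymal relative Ddr2 had 16.9 and 9.60 TPM. The Ddr pair was chosen for mention after its values were seen.

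Markers of other cell types moved between the libraries as well. Of 13 fibroblast markers 12 were higher in replicate 1 and none lower. Their log2 ratios ran from -0.10 (Crabp1) to 1.10 (Postn), with a median of 0.81. Their sum was 1.89-fold higher, beside 1.93-fold for the summed collagen genes. Most of the marker sum lay in Postn, Fbn1 and Dcn, at 636, 602 and 514 CPM in replicate 1. In replicate 2 these had 295, 310 and 294 CPM. The lists share some genes, since Dcn, Lum, Dpt and Loxl1 stand in the fibroblast list and in a pathway list. Of 10 basal keratinocyte markers, Col17a1 among them, 1 was higher and 8 were lower in replicate 1, with a median of -0.28 and summed levels of 11881 CPM in replicate 1 and 16149 CPM in replicate 2. All 6 spinous markers were lower, with a median of -0.74. Of 7 bulge markers 5 were higher and 1 lower, with a median of 0.47, while their summed level was lower in replicate 1, at 3125 CPM against 4429 CPM in replicate 2.

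Among the remaining types, 7 tested mural and smooth muscle markers had a median of 0.91. Their summed levels were 413 CPM in replicate 1 and 308 CPM in replicate 2, with Tagln at 0 counts in replicate 1. The 8 endothelial markers had a median of 0.55, with sums of 89.6 and 60.9 CPM. Adipocyte, melanocyte, Schwann, skeletal muscle and cartilage markers had medians of 0.63, 0.76, 0.19, 0.04 and 0.27. Their sums lay between 2.81 and 71.7 CPM in replicate 1 and between 1.88 and 76.2 CPM in replicate 2. In the same order, the folds of these sums, replicate 1 over replicate 2, were 2.10, 1.91, 0.941, 1.21 and 1.49. The 8 myeloid markers had a median of 0.00, with sums of 6769 and 7420 CPM. These sums exceeded those of the fibroblast markers in both libraries. The part of these cell types, keratinocytes included, in the collagen levels was not tested. In bulk RNA, fewer cells of a type and less RNA per cell cannot be told apart.

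With DESeq2's size factors 25 collagen genes were higher, beside 21.0% of all genes, and 6 lower, beside 23.2%, and with TMM factors the backgrounds were 21.4% and 22.7%. Scaling the libraries to the summed fibroblast markers in place of the totals, a choice made after the data were seen, gave 5 collagen genes higher in replicate 1, beside 2.23% of all genes, and 19 lower, beside 68.8%. On that scale the median of all genes moved by -0.75 in log2. Col1a1, Col1a2, Col6a1, Col6a2 and Col14a1 were the higher 5, at log2 ratios of 0.17, 0.14, 0.21, 0.08 and 0.18, and Col3a1 lay at 0.01 with an adjusted binomial p of 0.169. Relative to these markers, the log2 ratios of the abundant chains of types I, III and VI thus lay between 0.01 and 0.21. Col4a1, Col4a2 and Col18a1 were lower on that scale, at -0.42, -0.43 and -0.39.

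**Figure D4:**
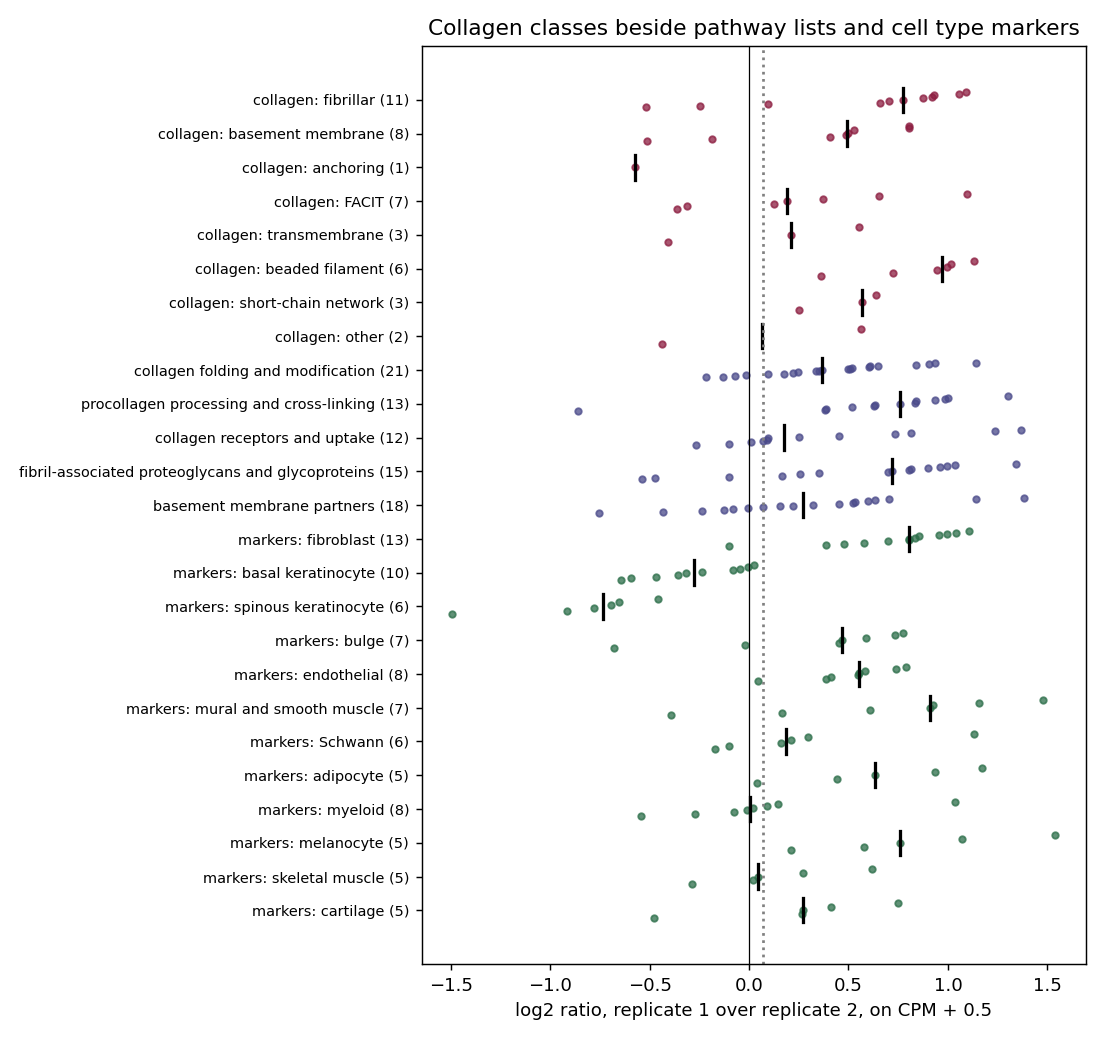
Log2 ratio of replicate 1 over replicate 2 on CPM + 0.5 for each tested gene (points) of the collagen classes, the pathway lists and the cell type markers, with list medians as vertical bars and the median of all tested genes, 0.07, dotted. The fibrillar and beaded filament medians were 0.77 and 0.97. Those of fibroblast, mural and smooth muscle, and melanocyte markers were 0.81, 0.91 and 0.76. Low genes enter these medians. Over genes at 10 CPM in both libraries they were 0.93 for fibrillar and 1.00 for beaded filament genes. At that level they were 0.83 for fibroblast and 0.91 for mural and smooth muscle markers, and no melanocyte marker reached it. The anchoring gene, Col7a1, lay at -0.58, and the medians were -0.28 for basal keratinocyte, -0.74 for spinous keratinocyte and 0.47 for bulge markers.

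Fibrillar genes stood apart from the other classes in the length of the glycine-codon run. The ranges of the basement membrane, FACIT and beaded filament classes overlapped each other. Col26a1 and Col28a1, which belong to none of the classes, had the shortest runs, at 23 and 28 repeats. The share of coding exons of 54 bases was 47.0% in fibrillar genes, 25.2% in FACIT genes (by gene, from 6.15% in Col12a1 to 44.4% in Col22a1, above the 41.2% of Col1a1), 4.24% in basement membrane genes and 0% in the short-chain network genes, whose helix lies in a large exon. The longest unbroken glycine-codon run ranged from 216 to 344 repeats in the 11 fibrillar genes and from 30 to 66 in the 8 basement membrane genes, whose helices are interrupted. The type VI genes had runs of 37 to 87 repeats, although a median of 14.4% of their codons lay in runs of 6 or more, beside 61.3% in fibrillar genes. Fibrillar genes of unlike level could match in structure, since the run was 339 repeats in Col2a1 and 338 in Col1a1. The shortest fibrillar runs, 216 in Col24a1 and 217 in Col27a1, belonged to low genes.

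**Figure D5:**
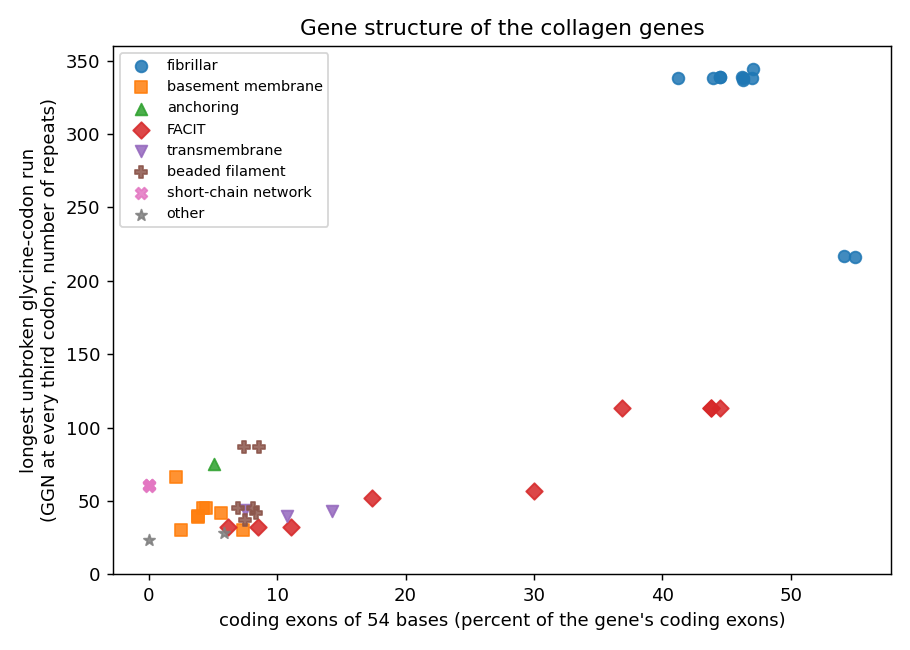
Percent of coding exons that are 54 bases long (x axis) against the longest unbroken run of glycine codons at every 3rd codon, in repeats (y axis), for the 43 collagen genes by class. The 11 fibrillar genes stand apart at 216 to 344 repeats, and the remaining 32 lie at 113 or fewer.

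Promoter sequences were at hand for 34 of the 43 genes, from RefSeq on build GRCm38.p6. Col1a1, the most abundant member, had none, nor had Col2a1, Col4a3, Col5a2, Col9a3, Col12a1, Col14a1, Col22a1 and Col26a1. The 250 bases before the start site were searched on both strands for 4 motifs by their exact letters, none of which contains another. The GC box, searched as GGGCGG, was present in 21 of 34 collagen genes (61.8%), beside 35.4% of all 27025 genes with a promoter. This motif holds only G and C, and the collagen windows were richer in these bases. Their median was 59.2% over 37 promoters, beside 52.4% over all 32851. The part of base composition in the GC box share was not tested. The CCAAT box, searched by those letters, was present in 12 (35.3%), beside 37.5%. The TATA box, searched as TATAAA, was present in 4 (11.8%), beside 14.3%. The AP-1 site, searched as TGACTCA, was in 1 gene (2.94%), Col6a1, beside 5.16%. A match is a run of letters and no evidence of a site in use.

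The windows of a type I, a type III, a type VI and a type VII gene are printed because these genes span the range of differences between the libraries, with matches in capitals, 5′ to 3′ along the gene. They lie at chr6:4505368-4505617, chr1:45311288-45311537 and chr9:108953336-108953585 on the plus strand and at chr10:76726045-76726294 on the minus strand.
Col1a2: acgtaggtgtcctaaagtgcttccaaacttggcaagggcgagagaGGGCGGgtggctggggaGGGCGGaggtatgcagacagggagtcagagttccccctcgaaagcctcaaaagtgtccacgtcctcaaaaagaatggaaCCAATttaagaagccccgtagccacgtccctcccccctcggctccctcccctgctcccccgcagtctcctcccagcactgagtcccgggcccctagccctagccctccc
Col3a1: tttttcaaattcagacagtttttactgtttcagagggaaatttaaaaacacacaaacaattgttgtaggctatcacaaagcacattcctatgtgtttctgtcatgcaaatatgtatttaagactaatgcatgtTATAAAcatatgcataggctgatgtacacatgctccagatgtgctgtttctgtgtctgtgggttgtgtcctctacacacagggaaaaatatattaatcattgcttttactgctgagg
Col6a1: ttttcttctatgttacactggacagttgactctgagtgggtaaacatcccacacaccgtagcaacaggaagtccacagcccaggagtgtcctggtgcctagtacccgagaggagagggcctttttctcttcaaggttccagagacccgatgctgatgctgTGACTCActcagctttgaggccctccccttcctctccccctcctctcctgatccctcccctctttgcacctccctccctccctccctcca
Col7a1: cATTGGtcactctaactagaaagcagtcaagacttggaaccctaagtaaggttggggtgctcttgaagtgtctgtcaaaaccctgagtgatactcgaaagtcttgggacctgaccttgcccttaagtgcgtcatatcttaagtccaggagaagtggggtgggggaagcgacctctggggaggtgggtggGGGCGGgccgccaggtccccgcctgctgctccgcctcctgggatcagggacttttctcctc
Col1a2 held CCAAT with its first base 109 bases before the start, and GC boxes at 205 and 188 bases. Col3a1 held TATAAA at 117 bases and no GC box, and Col6a1 held the AP-1 letters at 90 bases. Col7a1 held a GC box at 61 bases and CCAAT on the other strand at 249 bases. Col1a2 and Col3a1, with log2 ratios of 1.06 and 0.93, had none of these 4 motifs in common in this window.

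Col4a1 and Col4a2 are transcribed away from each other from a shared promoter. In RefSeq their 5′ ends overlap by 22 bases, printed in capitals with 4 bases on each side, on the plus strand at chr8:11312801-11312830.
Col4a1/Col4a2: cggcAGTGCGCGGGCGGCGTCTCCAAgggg
Their log2 ratios were 0.50 and 0.48, the closest agreement among the type IV pairs, while Col4a3 and Col4a4 were at 0.41 and 0.80. Whether a shared start goes with like ratios was not tested. Col4a5 and Col4a6, whose starts lie 1343 bases apart on the X chromosome and point away from each other, were at -0.19 and -0.51. Since no source used here states whether counting used strand, reads in the overlap of Col4a1 and Col4a2 cannot be told apart by gene. In GENCODE M21, 10 of the 43 genes have an exon that overlaps an exon of a gene on the other strand, among them Col5a1, Col9a3 and Col10a1, and 3 overlap another gene on the same strand, namely Col3a1, Col7a1 and Col20a1.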

How the data were processed

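Total RNA of GFP-positive cells, sorted after collagenase and trypsin digestion, was depleted of ribosomal RNA and sequenced as paired reads, per the labels' protocols. The authors deposited 1 raw count per gene and library, for which the submitters' processing notes name featureCounts and build mm39. The sources used here name no aligner, annotation or strand setting. The gene length is the deposited one, and no row lacked a gene name.

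CPM used library totals, and TPM the counts and lengths. The exact binomial test was run on 23690 genes with 10 or more counts in total, at an adjusted p of 0.05, and was tested on simulated data. edgeR's exact test, TMM factors and DESeq2 size factors were alternatives. The labels do not say how many animals gave each library, so p-values refer only to these 2 libraries. Those of the binomial test cover counting error only. With 2 libraries a sign-flip test cannot go below 0.5, so levels have no test. The libraries were not copies, since 6443 genes were higher and 3993 lower in replicate 1 beyond sampling noise.

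Members, classes and lists were chosen with earlier results of these data known. Values per library are given for the 3 highest genes of each class and for all that reached 10 CPM in each library. From each pathway list, the 3 highest by TPM and those called beyond a log2 ratio of 1 are named, except 1 gene that is not reported here. Promoters are from RefSeq (GRCm38.p6), exons and coding sequences from GENCODE M21 (GRCm38), using the longest coding transcript. Counts refer to mm39, and no coordinates were converted. Software was Python 3.11.15, numpy 2.4.6, pandas 2.3.3, scipy 1.17.1, R 4.3.3, edgeR 4.0.16 and DESeq2 1.42.0.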

Additional observations from a re-analysis of the deposited data

How the results depend on the processing

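With TMM factors or DESeq2 size factors, 25 collagen genes were higher and 6 lower in replicate 1, and the median log2 ratio was 0.49 with either. Col13a1 lost its call (adjusted binomial p of 0.0753 and 0.0759, and 0.0600 without the filter on low counts) and Col9a3 gained one. Among all genes called, 61.7% were higher in replicate 1 with totals, 48.5% with TMM factors and 47.5% with DESeq2 size factors, while the collagen genes stood at 83.9%, 80.6% and 80.6%. Without the filter 25 were higher and 5 lower, and pseudocounts of 0.1 and 1 CPM gave medians of 0.66 and 0.50. edgeR's exact test gave 0 higher and 0 lower, with 6 at an unadjusted p under 0.05, because that test adds the spread between libraries. Scaled to the fibroblast markers, an alternative added after the data were seen, 5 were higher and 19 lower, and the median was -0.10. The log2 ratios that changed sign on that scale were Col8a1 -0.61, Col18a1 -0.39, Col13a1 -0.033, Col10a1 -0.038, Col6a5 -0.0041, Col12a1 -0.26, Col5a3 -0.21, Col4a2 -0.43, Col4a1 -0.42, Col16a1 -0.72, Col8a2 -0.34, Col9a2 -0.055, Col27a1 -0.046, Col15a1 -0.10, Col24a1 -0.27, Col25a1 -0.013, Col11a1 -0.023, Col5a1 -0.043, Col4a3 -0.46, Col4a4 -0.089, Col19a1 -0.36. The cause was not tested.

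The share of all counts was 1.18%, and 0.499% on the TPM scale, where lengths enter. Without length scaling, the anchoring, FACIT and short-chain network shares of collagen RNA were 1.24%, 2.75% and 0.403%, beside 0.790%, 2.12% and 0.526% with it. The first chain's share of its pair was then 70.4% for Col1a1/Col1a2, 58.5% for Col4a1/Col4a2, 63.9% for Col5a1/Col5a2, 54.5% for Col6a1/Col6a2, 48.0% for Col6a1/Col6a3 and 43.5% for Col6a2/Col6a3, beside 67.7%, 52.5%, 57.9%, 64.4%, 71.6% and 58.2% per length. Leaving out either replicate left 33 detected genes each time, and the share of counts ranged from 0.808% to 1.56%. The difference between libraries has no value with 1 replicate left out. No paired analysis was possible because the series has 1 group.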
